A study of Mus musculus with 4 samples.

Results

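The 9 genes described here encode the calcineurin to NFAT step of T cell signalling: 4 transcription factors of the NFAT family (Nfatc1, Nfatc2, Nfatc3 and Nfat5), the 3 catalytic subunits of calcineurin (Ppp3ca, Ppp3cb and Ppp3cc), its regulatory subunit Ppp3r1 and its inhibitor Rcan1. They were taken by symbol from a fixed list, with no filter on their values, and were 9 of the 55536 mouse genes in the deposited tables. The list was made with earlier results of these data known. Total RNA was sequenced from splenic T cells, described in the labels by the antigen CD3, of male B6CASTF1/J mice, a first-generation cross in which the mothers were C57BL/6 and the fathers CAST/EiJ, aged 66 days. There was 1 group of 4 libraries, numbered 1 to 4 after their biological replicate numbers, and no treatment or second genotype, so every comparison is between genes within a library or between the 4 libraries. The labels call the samples biological replicates but give them 1 shared donor identifier, so SDs and p-values measure the spread between these samples, which need not be a spread between animals. The F1 is a single cross of 2 inbred strains, and no second strain was measured.

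When a T cell receptor is engaged, phospholipase C gamma releases inositol trisphosphate, calcium leaves the endoplasmic reticulum, and STIM and ORAI proteins let more of it in from outside. Calcium-loaded calmodulin then switches on calcineurin, a phosphatase made of a catalytic A subunit and a calcium-binding B subunit. Calcineurin strips phosphates from the NFATc factors, which move into the nucleus, often bind DNA together with AP-1 at cytokine genes, and are sent back to the cytoplasm when kinases phosphorylate them again. Nfat5 shares the DNA-binding domain of the family but lacks the calcineurin docking region and is known for the response to high salt. Cyclosporin and tacrolimus suppress the immune system by blocking calcineurin through the immunophilins Ppia and Fkbp1a.

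Total estimated counts ranged from 14584388 to 17335895 per library, and the 9 genes together took 17230, 18670, 18284 and 17150 of them in libraries 1 to 4. A level of 3 counts, taken as the limit of detection, corresponded to 0.190, 0.174, 0.183 and 0.206 CPM, the estimated count scaled to the library total. The label was checked against 8 pan-T cell markers (the CD3 chains, receptor constant regions, Cd2, Cd5 and Lck), which all had means above 10 TPM, the deposited abundance scaled to transcript length and library total, and summed to 2331, 2430, 2378 and 2402 TPM. Library 4 stood apart in 2 marker lists: 8 B cell markers summed to 145 TPM there and to between 13.8 and 19.2 TPM in the other libraries, and 6 erythroid markers to 633 TPM there and to between 15.3 and 62.5 TPM elsewhere. Library 2 had the most neutrophil marker RNA, 30.5 TPM against 7.14 to 9.90 TPM in the others, while 6 monocyte and macrophage markers (22.9 to 26.5 TPM) and 5 natural killer markers (10.1 to 16.6 TPM) stayed low throughout. The leading markers by mean TPM were Trbc2 (658), Trac (501) and Lck (313) for T cells, Igkc (21.6), Ighd (6.15) and Cd22 (5.24) for B cells and the globin genes Hba-a1 (72.4), Hbb-bs (57.1) and Hba-a2 (46.5) for erythroid cells. For neutrophils they were S100a9 (6.12), S100a8 (5.19) and Ngp (1.86), for monocytes and macrophages Lyz2 (15.4), Cd68 (4.26) and Csf1r (3.29), and for natural killer cells Tyrobp (5.60), Fcer1g (3.40) and Klrb1c (3.39). No marker of these lists was at 0 in all libraries. Values without library 4 are therefore given beside the levels and ratios below, and the part of these other cells in them was not tested.

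All 4 NFAT factors were expressed, and Nfatc3 led them. Nfatc3 (chr8:106058840-106130537, mm10), the NFATc member known from thymocyte development, had 70.5, 70.2, 69.1 and 78.1 TPM in libraries 1 to 4, from 5448, 6075, 5450 and 5325 estimated counts. Its mean was 72.0 ± 4.14 TPM (SD, n = 4), or 69.95 ± 0.758 TPM without library 4, which was the highest library. In bulk RNA a lower level can mean fewer cells that make a transcript or less of it per cell, and these cannot be told apart. At the mean, Nfatc3 stood at percentile 92.5 of the protein-coding genes with at least 1 TPM in every library.

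Nfatc1, the factor whose short form accumulates in activated T cells, had 42.5, 42.1, 45.1 and 45.8 TPM, with a mean of 43.9 ± 1.88 TPM (SD, n = 4). Its 4 values were close together and all lay below the lowest Nfatc3 value. Nfatc2 (chr2:168476410-168601657), the factor first purified from T cells as a cytokine gene regulator, had 29.2, 31.8, 32.2 and 35.5 TPM, a mean of 32.2 ± 2.58 TPM (SD, n = 4). Library 1 was its lowest and library 4 its highest. Nfat5 (chr8:107293470-107379517), the tonicity-responsive member, had 16.97, 16.97, 19.4 and 21.7 TPM, a mean of 18.8 ± 2.26 TPM (SD, n = 4). It was the lowest NFAT factor in every library in TPM, although its 2150 to 2533 counts were close to those of Nfatc2 (2322 to 2570): TPM divides by transcript length, and annotated Nfat5 transcripts reach 13443 bases. Without library 4 the means of Nfatc1, Nfatc2 and Nfat5 were 43.2, 31.1 and 17.8 TPM.

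Together the 4 factors summed to 166.8 ± 9.95 TPM (SD, n = 4). Nfatc3 made up 43.2 ± 1.12% of that sum, Nfatc1 26.3 ± 0.812%, Nfatc2 19.3 ± 0.639% and Nfat5 11.2 ± 0.726%. The second quantification, made by the authors with another method, gave 44.9, 26.5, 17.9 and 10.8%, so the makeup of the family moved by less than 2 percentage points between the methods. Counting only transcripts annotated as protein coding, the shares were 43.7, 34.1, 13.2 and 8.98%, which raised Nfatc1 and lowered Nfatc2. The remaining NFATc gene, Nfatc4, was listed at 0 counts in every library of the first quantification. The second placed 88.5, 75.5, 133 and 83.8 estimated counts on it, all of them in 6 transcripts annotated as retained introns and 0 in its 5 coding transcripts.

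**Figure D1:**
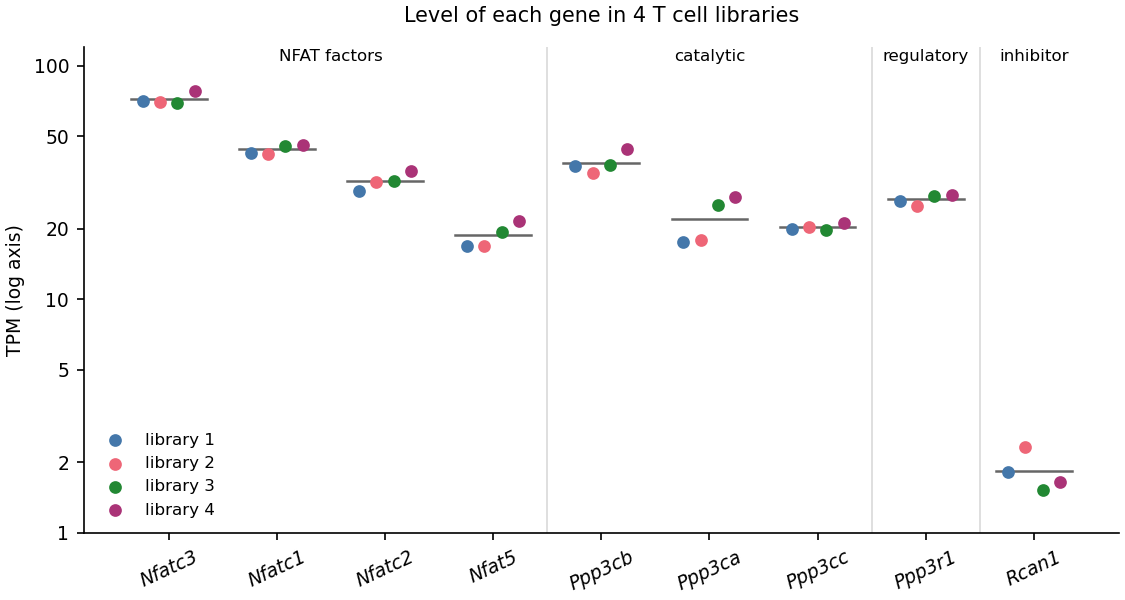
Level of each of the 9 genes in TPM (log axis) in the 4 libraries, with points coloured by library and a bar at the mean. Nfatc3 sits above every other gene at 69.1 to 78.1 TPM and Rcan1 far below at 1.53 to 2.32 TPM, while Ppp3ca splits into a lower pair (libraries 1 and 2) and a higher pair (libraries 3 and 4).

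Among the catalytic subunits of calcineurin, Ppp3cb was the most abundant. Ppp3cb (chr14:20499364-20546573), which encodes the beta isoform known as the main catalytic subunit of lymphocytes, had 37.1, 34.8, 37.4 and 43.9 TPM, a mean of 38.3 ± 3.93 TPM (SD, n = 4) and of 36.4 TPM without library 4. Ppp3cc (chr14:70217865-70289471), whose gamma isoform is best known from testis and sperm, had 19.9, 20.5, 19.7 and 21.2 TPM, a mean of 20.3 ± 0.665 TPM (SD, n = 4) and of 20.03 TPM without library 4. Its TPM range, 1.08-fold, was the narrowest of the 9 genes over all transcripts of the first quantification. The narrowest was Ppp3r1 (1.13-fold) in the second quantification and Nfatc1 (1.09-fold) over coding transcripts. Ppp3ca (chr3:136670124-136937727), the alpha isoform abundant in brain, had 17.6, 17.9, 25.4 and 27.5 TPM, a mean of 22.1 ± 5.09 TPM (SD, n = 4) and of 20.3 TPM without library 4. Libraries 3 and 4 were high and libraries 1 and 2 low, with no overlap between the pairs. The 3 genes summed to 80.7 ± 8.94 TPM, of which Ppp3cb took 47.5 ± 1.77%, Ppp3ca 27.2 ± 3.61% and Ppp3cc 25.4 ± 2.38%; the second quantification gave 44.5, 30.2 and 25.3%.

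The split of Ppp3ca between libraries lay mainly in its non-coding transcripts. Counted as reads without dividing by length, the gene had 55.0, 55.6, 63.5 and 64.2 CPM, so the highest library exceeded the lowest by 1.17-fold in CPM and by 1.56-fold in TPM. Its 2 coding transcripts summed to 12.7, 12.4, 14.2 and 13.7 TPM, a much narrower range. The remainder was in non-coding transcripts, among them the short retained-intron transcript Ppp3ca-205 (441 bases), with 1.62, 2.39, 2.53 and 6.14 TPM, and the processed transcript Ppp3ca-203, with 1.1, 0.85, 4.27 and 2.93 TPM. The longer non-coding Ppp3ca-207 (2647 bases) had 1.1, 1.36, 1.87 and 2.27 TPM and Ppp3ca-208 (2038 bases) 1.13, 0.9, 0.74 and 1.09 TPM. The processed transcript Ppp3ca-204 (713 bases) took 2.99% of the gene in the first and 21.3% in the second quantification. On short transcripts few reads make many TPM, and the overlapping gene Gm42822 on the same strand averaged 57 counts in the same region.

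**Figure D2:**
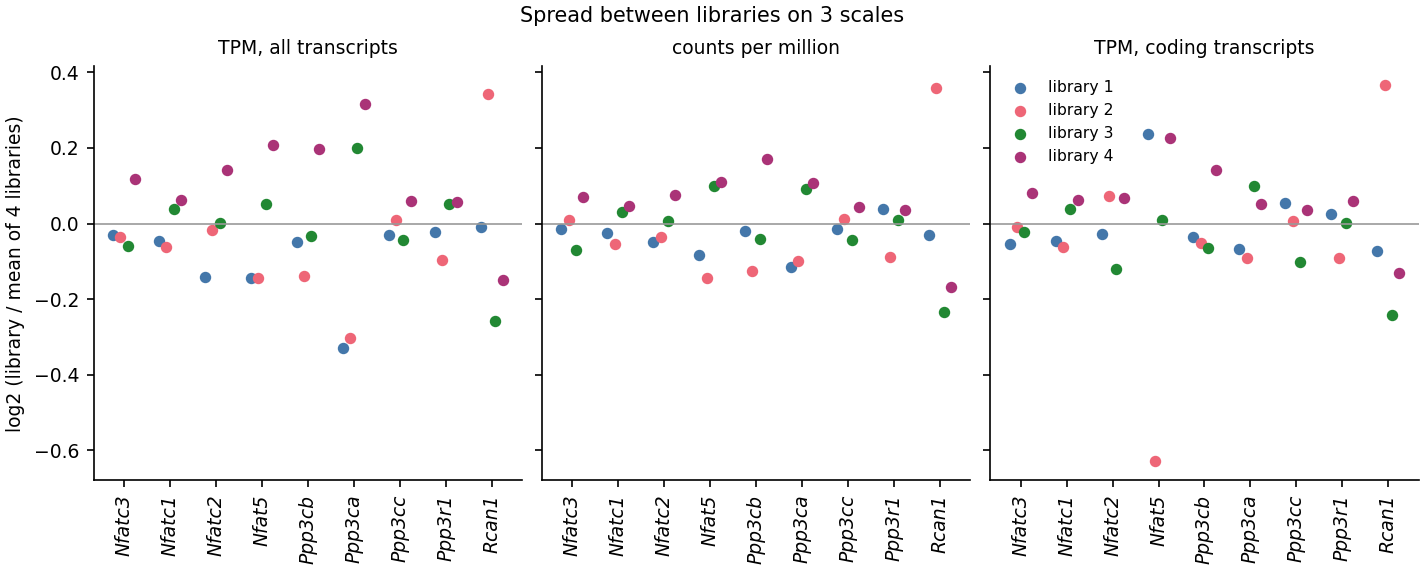
Log2 of each library's value over the mean of the 4 libraries for the 9 genes, on TPM of all transcripts (left), on CPM (middle) and on TPM of coding transcripts (right). Ppp3ca spreads widely on TPM and little on the other scales, Rcan1 is highest in library 2 on all 3, and Nfat5 is at its lowest in library 2 on all 3, level with library 1 on TPM of all transcripts and furthest below the mean on TPM of coding transcripts.

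The catalytic genes share a 30-base exon that is used or skipped between the segments known to bind calmodulin and to autoinhibit the enzyme. Its sequence in each gene is shown because the genes differed in how often it was used. Each is from the mm10 annotation of a coding transcript, 5′ to 3′ on the gene's strand, with capitals at the 13 positions where all 3 genes have the same base. The exons lie at chr3:136932011-136932040 (plus strand), chr14:20503247-20503276 (minus strand) and chr14:70220017-70220046 (minus strand).
Ppp3ca: CtActgttGAgGCtattGAGGctgatgAAG
Ppp3cb: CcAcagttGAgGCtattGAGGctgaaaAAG
Ppp3cc: CcAaacaaGAaGCcgcaGAGGagcgggAAG

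The Ppp3ca and Ppp3cb exons had the same base at 26 of 30 positions, and the Ppp3cc exon matched Ppp3ca at 14 and Ppp3cb at 15. In Ppp3ca the exon was in the minority form: transcript Ppp3ca-201, which carries it (521 residues), took 39.0, 32.6, 43.1 and 38.6% of the coding-transcript TPM of the gene, and Ppp3ca-202, which skips it (511 residues), took the rest. The mean was 38.3 ± 4.31% (SD, n = 4), and 38.0 ± 3.86% in the second quantification. In Ppp3cb the exon was carried by most of the transcripts that extend past it, 93.9, 100, 90.6 and 96.2%, with a mean of 95.2 ± 3.95% (SD, n = 4) and of 90.2 ± 6.49% in the second quantification. The ranges of the 2 genes did not overlap in either quantification. In Ppp3cc both annotated coding transcripts have the exon, so its use there could not be measured. The 2 Ppp3ca transcripts also differ at their ends, so their share rests on more than the reads over this exon.

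Ppp3cb was further divided by where its transcripts end. Transcript Ppp3cb-206, which stops upstream of the last exons and encodes 497 residues, took 30.04, 39.4, 29.2 and 33.0% of coding-transcript TPM, a mean of 32.9 ± 4.61% (SD, n = 4). The second quantification gave 33.3 ± 4.39%, which was within the spread between libraries. A mouse form with an early end and its own C-terminus, CnAβ1, is known; whether this transcript is that form was not tested. The leading full-length form, Ppp3cb-205, took 30.5 ± 6.65% of all TPM of the gene in the first and 26.5 ± 5.65% in the second quantification, followed by Ppp3cb-202 (15.5% and 12.1%).

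Ppp3r1 (chr11:17159263-17200375), a calcium-binding regulatory subunit of calcineurin, had 26.4, 25.04, 27.8 and 27.8 TPM. Its mean was 26.7 ± 1.32 TPM (SD, n = 4), or 26.4 TPM without library 4. The 4 values were within 1.11-fold of each other. Nearly all of it, 91.3 ± 2.48%, was in the single coding transcript Ppp3r1-201 and the rest in the processed transcript Ppp3r1-202. Wdr92, which overlaps Ppp3r1 on the same strand, averaged 111 counts against 1124 for Ppp3r1. The testis-type regulatory gene Ppp3r2 was listed at 0 in all libraries by both quantifications.

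Rcan1 (chr16:92391953-92470867), which binds calcineurin and inhibits it, was the lowest of the 9 genes by a wide margin. It had 1.82, 2.32, 1.53 and 1.65 TPM, from 62, 89, 56 and 52 counts, with a mean of 1.83 ± 0.348 TPM (SD, n = 4) and of 1.89 TPM without library 4. Library 2 was highest. Rcan1 stood at percentile 3.63 of the protein-coding genes with at least 1 TPM in every library. Of the other genes of its family, Rcan3 had 8.27, 7.59, 7.48 and 8.76 TPM, above Rcan1 in every library, and Rcan2 was listed at 0 in the first quantification, while the second placed 5.003 to 12.01 counts on it.

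Rcan1 has separate promoters, and the form made from the last of them, transcript Rcan1-201, is known as a target that calcineurin and NFAT switch on, which makes it an inhibitor under the control of the pathway it inhibits. The promoters of this start and of the main upstream start are shown because they differ in the NFAT core motif, GGAAA, searched on both strands (TTTCC on the other). They are from RefSeq (GRCm38.p6, the assembly called mm10), 5′ to 3′ on the minus strand, from 250 bases before to 50 bases after the annotated start, at chr16:92400029-92400328 for the downstream start and chr16:92466120-92466419 for the upstream start. Capitals mark motif matches.
Rcan1 downstream: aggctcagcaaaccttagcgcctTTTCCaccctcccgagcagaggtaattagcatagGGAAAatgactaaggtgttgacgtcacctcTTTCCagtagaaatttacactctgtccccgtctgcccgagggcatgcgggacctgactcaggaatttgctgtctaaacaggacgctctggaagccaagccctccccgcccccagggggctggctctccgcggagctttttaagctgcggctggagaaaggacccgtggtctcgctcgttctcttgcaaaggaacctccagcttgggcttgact
Rcan1 upstream: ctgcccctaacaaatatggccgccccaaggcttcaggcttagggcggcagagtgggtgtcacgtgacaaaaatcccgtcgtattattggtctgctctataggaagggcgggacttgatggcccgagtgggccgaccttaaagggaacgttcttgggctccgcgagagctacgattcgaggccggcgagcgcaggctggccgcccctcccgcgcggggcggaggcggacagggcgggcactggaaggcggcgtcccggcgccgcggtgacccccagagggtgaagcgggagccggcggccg

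The downstream promoter held 3 matches that did not overlap, starting 227, 193 and 163 bases before the start site, and the upstream promoter, 66091 bases away, held 0. Of 32851 RefSeq promoters of the same length, 61.3% held at least 1 match, the median was 1 and 9.42% held at least 3. The downstream transcript Rcan1-201 (198 residues) was listed at 0 TPM in all 4 libraries of the first quantification, whose deposited upper interval bounds were 0.693, 0.498, 0.508 and 0.438 TPM. The second quantification gave it 0, 46.6, 73.5 and 36.9% of the coding-transcript TPM of the gene. In the first, Rcan1-206 and Rcan1-203, which start upstream, led with 46.2 ± 23.1% and 44.9 ± 18.7% (SD, n = 4), and the second put Rcan1-203 near 0. With 52 to 89 counts per library, the split of Rcan1 among its promoters was not determined by these data.

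**Figure D3:**
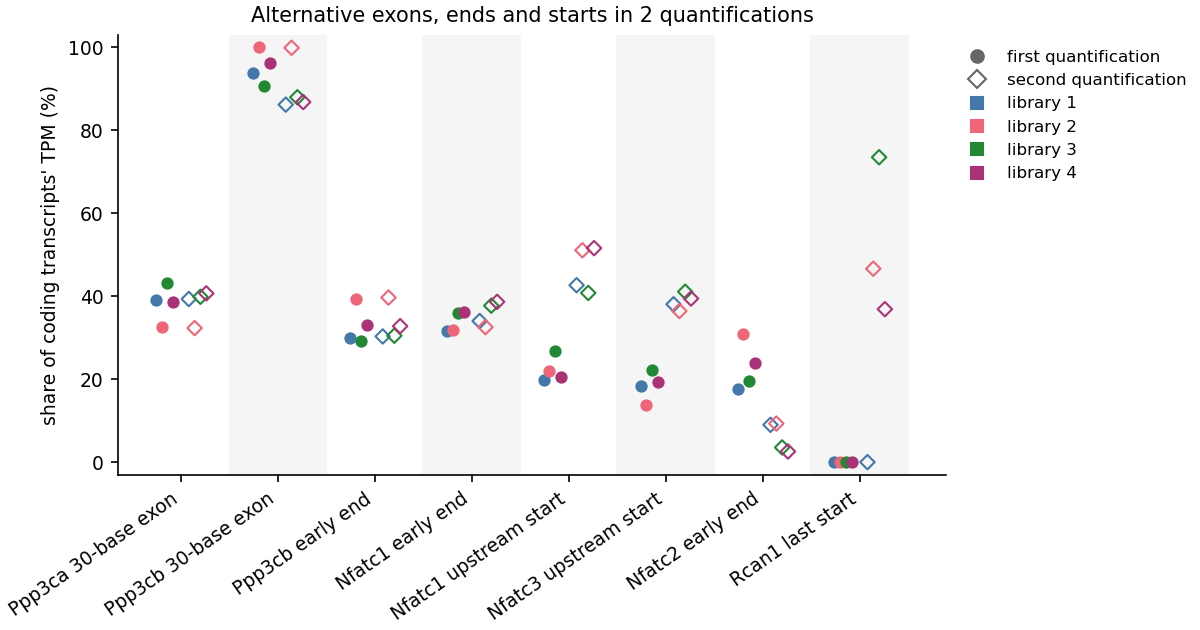
Share of a gene's coding-transcript TPM that carried each alternative exon, end or start (percent), by library (colour) and quantification (filled circles, first; open diamonds, second). The Ppp3ca exon (32.6 to 43.1%) and the early ends of Ppp3cb and Nfatc1 sit at like heights in both, while the upstream starts of Nfatc1 and Nfatc3, the early end of Nfatc2 and the last start of Rcan1 differ between quantifications.

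The NFATc genes also use alternative starts and ends. Nfatc1 transcripts that end early (Nfatc1-201 and Nfatc1-206), the arrangement of its short form, took 31.6, 31.8, 36.0 and 36.3% of coding-transcript TPM, a mean of 33.9 ± 2.57% (SD, n = 4), and the second quantification gave 35.7 ± 2.91%. The upstream start, known as the promoter that is induced on T cell activation, was less firmly measured, at 22.3 ± 3.18% in the first and 46.5 ± 5.61% in the second. The transcript that joins this start to the early end, Nfatc1-206 (717 residues), was listed at 0 in all libraries of the first quantification. It had 1.17, 2.61, 1.53 and 8.28 TPM in the second, where library 4 was highest. That library also held the most B cell and erythroid marker RNA, and the part of those cells was not tested. Of the transcripts with the long end, Nfatc1-203 took 33.6 and 17.5% of the gene, Nfatc1-202 22.3 and 17.7%, Nfatc1-205 10.2 and 6.51% and Nfatc1-204 0 and 22.0% in the first and second quantifications.

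Nfatc3 was led by a single transcript, Nfatc3-201 (1076 residues), with 63.8 ± 3.17% of its TPM in the first and 51.8 ± 2.51% in the second quantification. The coding transcript Nfatc3-206 differed most between methods, at 3.97% of the gene in the first and 19.9% in the second, while Nfatc3-202 had 10.4 and 12.8% and the retained-intron transcript Nfatc3-203 15.7 and 9.11%. The upstream start that Nfatc3-202 and Nfatc3-206 share took 18.4 ± 3.43% of coding-transcript TPM in the first and 38.7 ± 1.98% in the second. The Nfatc2 transcripts that begin at the most upstream start (Nfatc2-205 and Nfatc2-209) were listed at 0 in the first quantification. The second gave them 8.84% of coding-transcript TPM in library 1 and almost nothing in the others. Nfatc2-202 (927 residues) led in the first with 25.9 ± 5.19%, whereas Nfatc2-204 led in the second with 45.9 ± 3.33%, against 14.8 ± 7.96% in the first. The non-coding Nfatc2-208, Nfatc2-203 and Nfatc2-206 took 18.3, 9.56 and 12.9% in the first and 1.01, 14.0 and 8.28% in the second. Transcripts with the early end of Nfatc2 took 23.0 ± 5.87% of coding-transcript TPM in the first and 6.10 ± 3.54% in the second. In the first this was Nfatc2-201 alone. As a share of all TPM of the gene, Nfatc2-201 took 12.2% in the first and 2.82% in the second.

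The transcripts of Nfat5 also differed between methods. Nfat5-201 (1225 residues) led in the first quantification with 24.9 ± 2.32% and took 4.58 ± 2.67% in the second. The long coding transcript Nfat5-214 took 32.8, 1.06, 19.4 and 18.7% of the gene in libraries 1 to 4, and the equally long Nfat5-206, annotated for nonsense-mediated decay, took 5.13, 34.6, 18.5 and 16.6%. Of the other Nfat5 transcripts, the coding Nfat5-208 took 12.4 and 5.11% and Nfat5-211 2.27 and 12.1% in the first and second quantifications, the retained-intron Nfat5-212 12.8 and 15.2%, and the decay transcript Nfat5-213 0 and 10.2%. The share of the coding transcript Nfat5-214 was lowest in library 2, where that of Nfat5-206 was highest; their lengths are 13380 and 13443 bases. The coding-transcript TPM of Nfat5 was 13.7, 7.5, 11.7 and 13.6, and its CPM was 136, 131, 155 and 156. Both were lowest in library 2, which the highest library exceeded by 1.82-fold in coding-transcript TPM and by 1.19-fold in CPM.

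A sizeable part of the RNA of most of the 9 genes was in transcripts not annotated as protein coding. The median share of the 9 was 27.8% of TPM, with a range of 0 to 47.2%, beside a median of 27.9% (interquartile range 6.15 to 48.4%) over 9736 protein-coding genes with at least 1 TPM in every library. Nfatc1 had 0% in the first quantification and Nfatc2 the most. Retained introns took 27.8 ± 3.25% of Ppp3cb, 25.6 ± 6.38% of Ppp3ca and 21.9 ± 2.00% of Nfatc3 (SD, n = 4 each). The largest single one in Ppp3cb was Ppp3cb-208, with 12.6% of the gene in the first and 15.6% in the second quantification. For Ppp3cc the non-coding part was the processed transcript Ppp3cc-202, at 33.02, 36.98, 39.3 and 37.8%, and the coding part was Ppp3cc-201 (60.6 and 35.4% in the first and second quantifications) and Ppp3cc-203 (2.60 and 30.9%). In the second quantification the median was 29.6% for the 9 genes and 30.2% over all.

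**Figure D4:**
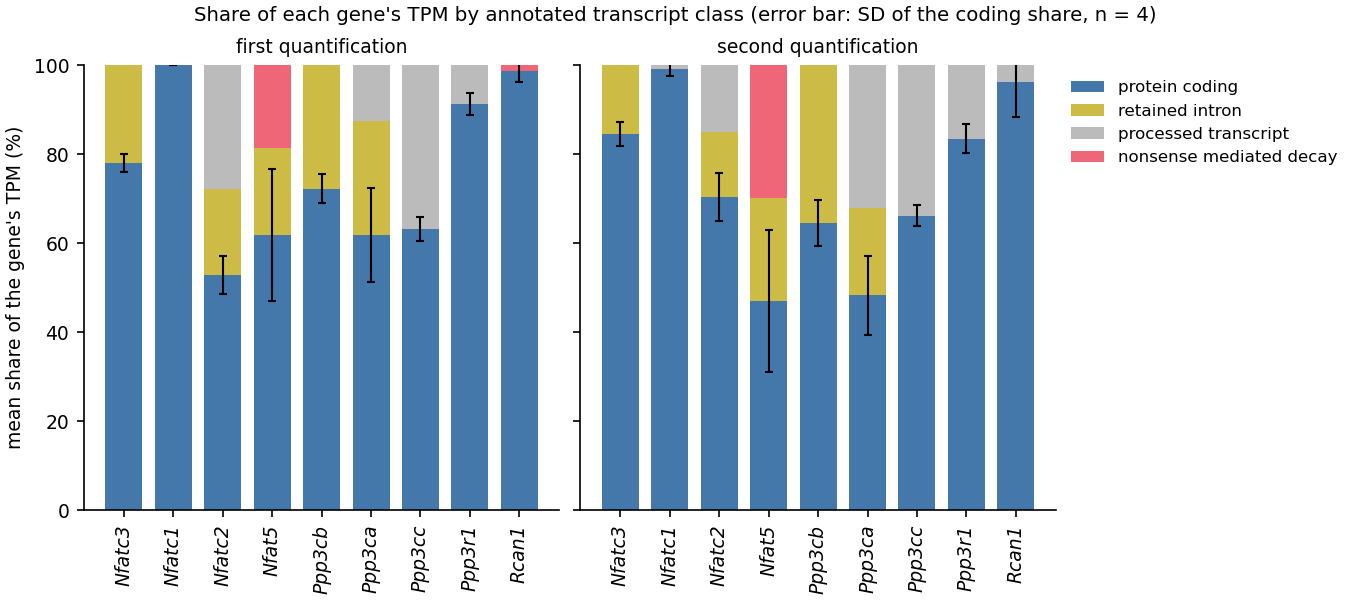
Mean share of each gene's TPM in transcripts annotated as protein coding, retained intron, processed transcript or nonsense-mediated decay (percent), for the first (left) and second (right) quantification; error bars give the SD of the coding share over 4 libraries. Nfatc1, Rcan1 and Ppp3r1 are mostly coding, and Nfatc2, Nfat5, Ppp3ca and Ppp3cc carry the largest non-coding parts in the first quantification.

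By mean TPM over all transcripts of the first quantification the genes ran Nfatc3, Nfatc1, Ppp3cb, Nfatc2, Ppp3r1, Ppp3ca, Ppp3cc, Nfat5 and Rcan1. Only 3 steps in this order had ranges that did not overlap: Nfatc3 above Nfatc1, Nfatc2 above Ppp3r1, and Nfat5 above Rcan1. The step from Nfatc2 to Ppp3r1 depended on the scale. Over coding transcripts Nfatc2 (15.6 to 17.8 TPM) lay below Ppp3r1 (22.9 to 25.4 TPM) in every library. In the second quantification Nfatc2 was lower in libraries 1 and 3 (32.5 against 33.7 and 32.7 against 33.5 TPM) and higher in libraries 2 and 4. The neighbours Nfatc1 and Ppp3cb, Ppp3cb and Nfatc2, and Ppp3r1 and Ppp3ca had overlapping ranges in the first quantification. They kept their order there within each of the 4 libraries. In the second, Ppp3cb exceeded Nfatc1 in library 3 (52.8 against 50.1 TPM). Ppp3ca there exceeded Ppp3r1 in libraries 3 and 4 (37.9 against 33.5 and 44.2 against 34.7 TPM). The remaining libraries kept the order, as did Ppp3cb and Nfatc2 in all of them. In the first quantification Ppp3ca exceeded Ppp3cc in 2 of 4 libraries and Ppp3cc exceeded Nfat5 in 3 of 4. Neither of these neighbouring pairs kept its order.

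The ratios of family members within a library held their direction in every library in 10 of 11 cases. Each mean log2 ratio was tested with exact sign flips of the 4 libraries (two-sided permutation test); 0.125 is the smallest p this allows, so no ratio could pass 0.05, and those 10 had p = 0.125, or 0.138 after Benjamini-Hochberg adjustment over 11 ratios. The log2 ratio of Nfatc3 was 0.71 ± 0.07 to Nfatc1, 1.16 ± 0.07 to Nfatc2 and 1.95 ± 0.12 to Nfat5 (SD, n = 4), that is 1.64-fold, 2.24-fold and 3.85-fold. That of Nfatc1 to Nfatc2 was 0.45 ± 0.08, that of Nfatc1 to Nfat5 1.23 ± 0.11 and that of Nfatc2 to Nfat5 0.78 ± 0.09. In TPM the order of the NFAT factors was the same in each of the 4 libraries, and without library 4 these 6 log2 ratios were 0.70, 1.17, 1.98, 0.48, 1.28 and 0.81. In CPM, which does not divide by length, the ratio of Nfatc2 to Nfat5 was 0.08 ± 0.09 and Nfat5 exceeded Nfatc2 in library 3 (155 against 153 CPM).

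Within calcineurin, the log2 ratio of Ppp3cb was 0.82 ± 0.24 to Ppp3ca and 0.91 ± 0.12 to Ppp3cc (SD, n = 4), and 0.86 to each without library 4. Ppp3ca and Ppp3cc were not distinguished in TPM: their log2 ratios were -0.18, -0.19, 0.36 and 0.38, with a mean of 0.09 ± 0.32 (exact sign-flip permutation p = 0.625, adjusted p = 0.625), and a mean of -0.00065 without library 4. In CPM Ppp3ca was above Ppp3cc in all 4 libraries, with a log2 ratio of 0.48 ± 0.12 that does not account for transcript length. The 3 catalytic genes together exceeded the regulatory gene Ppp3r1 in each library, with a log2 ratio of 1.59 ± 0.10, or 3.01-fold, and of 1.54 without library 4. Rcan1 stood below the summed catalytic genes by 5.47 on the log2 scale (a log2 ratio of -5.47 ± 0.39), 44.5-fold lower in RNA, and by 5.36 (-5.36) without library 4. Both ratios to or of the summed catalytic genes were smaller in size over coding transcripts alone. The log2 ratio to Ppp3r1 was then 1.14 ± 0.05 and that of Rcan1 was -4.91 ± 0.30. RNA ratios of this kind give no protein stoichiometry.

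**Figure D5:**
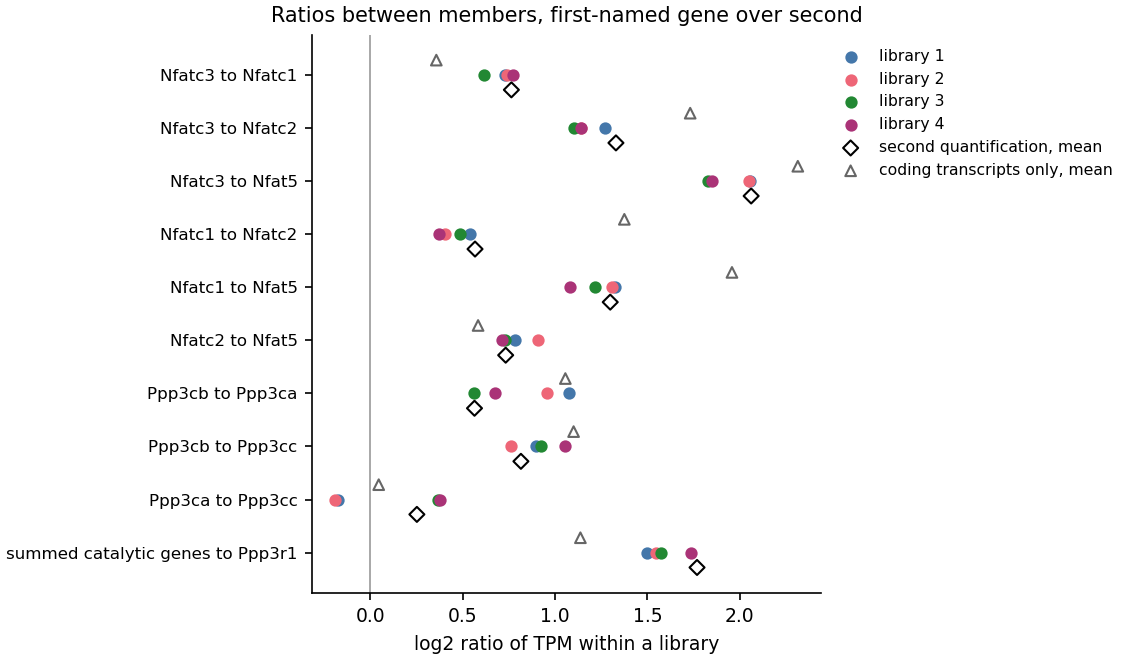
Log2 ratio of TPM within a library for 10 gene pairs, first-named gene over second, with points for the 4 libraries, diamonds for the mean of the second quantification and triangles for the mean over coding transcripts. All points lie right of 0 except those of Ppp3ca to Ppp3cc, which fall on both sides (-0.19 to 0.38); the ratio of Rcan1 to the summed catalytic genes, at -5.47, is off the axis and not drawn.

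None of the 9 genes was called variable between the libraries. The test asks whether a gene varied more than genes of its abundance did in these same libraries. A gene that was not called may still vary as much as those genes. In edgeR's goodness-of-fit test on rounded estimated counts, with Benjamini-Hochberg adjustment over 13118 genes, 0 of the 9 passed 0.05. Beside them 183 of all tested genes, or 1.40%, were called. An unadjusted p under 0.05 was found for 0 of the 9, beside 603 of all 13118. At shares this low, 0 among 9 genes is not a result about these genes. The smallest unadjusted p-values were 0.288 for Nfat5 and 0.317 for Ppp3cb. The SD of log2 CPM over the libraries had a median of 0.06 over the 9 genes, from 0.03 for Nfatc1 to 0.27 for Rcan1. Over all tested genes the median was 0.12. These medians were not matched for abundance, so they do not show the 9 genes as steadier than others. Rcan1, with the fewest counts, spread most. A p above the threshold does not show that the levels were equal.

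The genes that feed and oppose calcineurin were present. Calmodulin, the calcium sensor that activates it, was represented by Calm2 with 98.1 ± 2.28 TPM and Calm3 with 39.4 ± 1.73 TPM (SD, n = 4). Of 9 genes of store-operated calcium entry and its trigger, all had a mean of at least 1 TPM and 8 had at least 10 TPM, led by Plcg1 (113 TPM), the phospholipase that starts the calcium signal, the channel gene Orai2 (89.3 TPM) and the calcium-release receptor Itpr2 (67.0 TPM). Of 8 calcineurin inhibitors, scaffolds and drug partners, 5 had at least 1 TPM: Ppia, the cyclosporin-binding cyclophilin, had 420 ± 7.40 TPM, the tacrolimus-binding Fkbp1a 50.3 ± 1.15 TPM and the calcineurin inhibitor Cabin1 40.9 ± 3.18 TPM. Cabin1 exceeded Rcan1 in every library. Of the tested genes, 0 of 9 of the calcium entry list and 0 of 6 of the inhibitor and scaffold list were called variable. Calm2 and Calm3 were not called between libraries either, and none of these had an unadjusted p under 0.05 in the goodness-of-fit test. Over all 13118 tested genes 1.40% were called and 603 had such a p. With those shares, 0 in lists this short is no result about their genes.

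All 12 kinases listed as opposing NFAT nuclear entry or promoting its export had at least 10 TPM. They were led by the casein kinase Csnk1a1 (95.4 ± 2.65 TPM), the protein kinase A subunit Prkacb (52.0 ± 1.09 TPM) and the casein kinase Csnk1d (51.7 ± 6.19 TPM). In the goodness-of-fit test 0 of 12 were called variable between libraries (0 with an unadjusted p under 0.05). Over all tested genes 1.40% were called, so 0 of 12 is no result about these kinases. Of 10 transport factors and partners found in the tables, 9 had a mean of at least 1 TPM, led by Trim28 (128 TPM), the transcription factor Mef2d (79.4 TPM) and the importin Kpnb1 (55.6 TPM). The 1 gene of that list called variable was Lrrk2, a kinase gene also described as holding NFAT in the cytoplasm, with 17, 30, 25 and 158 counts in libraries 1 to 4 (edgeR goodness-of-fit adjusted p = 4.67e-11). Library 4, where it was highest, also held the most B cell and erythroid marker RNA; without it the adjusted p was 1.00, and the part of those cells was not tested.

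The AP-1 partners of NFAT were abundant, with 7 of 8 genes at 10 TPM or more, led by Junb (382 TPM), Jund (271 TPM) and Jun (143 TPM). Of the 7 tested, 2 were called variable between libraries: Fos, with 57.6, 83.1, 117 and 141 TPM (edgeR goodness-of-fit adjusted p = 2.31e-19), and Fosb (adjusted p = 5.42e-19). Both stayed below 0.05 when any 1 library was left out, with adjusted p at most 1.98e-05 and 2.71e-06. The highest library exceeded the lowest by 2.46-fold in TPM for Fos and by at most 1.28-fold for any of the 4 NFAT factors.

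Known NFAT targets in T cells were mostly low. Of 15 listed cytokine, receptor and response genes, 10 had a mean of at least 1 TPM and 3 at least 10 TPM: Cd40lg, the ligand that helps B cells (25.8 ± 4.67 TPM), the receptor-response factor Nr4a1 (20.6 ± 3.30 TPM) and the inhibitory receptor Ctla4 (20.3 ± 4.90 TPM). Il2, the classic NFAT and AP-1 target, had 0, 0.27, 0.22 and 0.09 TPM, which corresponds to fewer than 5 counts in each library, and Il3 was listed at 0. Of the 10 tested, Ctla4 alone was called variable, with 14.2, 22.9, 25.4 and 18.6 TPM (edgeR goodness-of-fit adjusted p = 0.0331); the call was lost without library 1, 2 or 3 (adjusted p = 0.882, 0.134 and 0.378) and with a common dispersion (0.0858). Of 7 osmotic target genes of Nfat5, 5 had at least 1 TPM, while the betaine transporter Slc6a12 was listed at 0. They were led by the amino acid transporter Slc38a2 (45.2 TPM), the taurine transporter Slc6a6 (39.3 TPM) and the aldose reductase Akr1b3 (37.9 TPM). In the goodness-of-fit test 0 of 6 tested were called variable, with 0 at an unadjusted p under 0.05. Over all tested genes 1.40% were called, so 0 of 6 is no result about this list.

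The protein-coding genes closest to the leading members in level across the 4 libraries were found by the mean absolute difference of log2 TPM among 9735 candidates. They were Plgrkt (0.01) and Pik3r5 (0.04) for Nfatc3, Nr2c2 (0.03) and Plcb2 (0.04) for Ppp3cb, and Arvcf (0.05) and Ccdc34 (0.09) for Rcan1. With 4 libraries of 1 group, this likeness describes level more than pattern.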

How the data were processed

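Each of the 4 libraries was quantified alone by the authors against the mouse assembly mm10 and GENCODE annotation M21, per the text deposited with each library; for the aligner and quantifiers, names were not given in the sources used. The first quantification has gene and transcript tables in the RSEM column layout, the second a transcript table in the kallisto layout, summed here per gene. The deposited expected counts are estimates that need not be whole and are not normalized. The deposited TPM values divide by effective length and sum to a fixed total in which short structural RNAs take a large part, so absolute TPM depends on that part: over protein-coding genes alone Nfatc3 has 204 TPM. The authors' deposited percent values give each transcript's share of its gene; shares printed here were recomputed from TPM. Reads from CAST/EiJ alleles were assigned to the C57BL/6 reference, with an effect not tested here. The kit marks strand per the labels, but its use in counting is not given.

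Numeric identifiers and spike-ins (0.299 to 0.347% of counts) stayed out of library sizes and tests. Expected counts were rounded and tested with edgeR 4.0.16 in R 4.3.3 (intercept only, TMM, filterByExpr, trended dispersion, goodness-of-fit, Benjamini-Hochberg at 0.05), checked on simulated counts. Log2 TPM ratios were tested by exact sign-flip permutation with numpy 2.4.6 in Python 3.11.15. The packages pandas 2.3.3 and matplotlib 3.10.9 were also used. Starts and ends were grouped by overlap of first or last exons among coding transcripts. Intervals and the floor of 3 counts cover counting error only, because reads amplified by PCR and lacking molecular identifiers cannot be taken as separate molecules. The 9 genes and all lists were chosen with earlier results of these data known. All 9 genes are named, with transcripts of at least 10% of their gene in either quantification and known promoter or splice forms, the top 3 genes of each list, and the 2 nearest genes by level of 3 members. Nron was not matched to an identifier and is not used here, and 1 gene that this rule would have named is not reported here. Called list genes (Lrrk2, Fos, Fosb, Ctla4) were named after their values were seen.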

Additional observations from a re-analysis of the deposited data

Results flagged for a closer look

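Of 84 levels, log2 ratios and transcript shares examined over the 4 libraries, 4 had a single library far from the other 3. Chance gives such a gap in about 1 in 20 sets of normally distributed values, so this many flags can arise by chance. A share that is 0 in all but 1 library is flagged whatever its size. The Nfatc3 level was 78.1 TPM in library 4, against 69.1 to 70.5 TPM in the others, and scaled to the library total the same library had 366 CPM against 333 to 352 CPM. That library also held the most B cell and erythroid marker RNA, whose part was not tested. The other flags all concern Rcan1 in library 2, where it had 89 counts: transcript Rcan1-202 took 29.2% of the gene there and 0% in the other libraries, and Rcan1-205, the only coding transcript at the most upstream start, took 1.72% there and 0% elsewhere, both as a transcript share and as the share of that start. The second quantification put Rcan1-202 mainly in library 1, at 2.09 TPM, so these Rcan1 shares were not stable between methods.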

How the results depend on the processing

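The count of the 9 genes called variable between libraries was 0 with RLE or library-size scaling, no filter on low counts, a common dispersion, the second quantification and each library left out (range 0 to 0). The count over all genes was less stable: 183 were called with all libraries, 353 with a common dispersion, 279 of 23727 with no filter, 118 without library 1 and 116 without library 4. Each of the 11 log2 ratios kept its direction, with no p able to pass 0.05 in this design, with CPM in place of TPM, log2(TPM + 1), the second quantification and coding transcripts alone. With 1 library left out, 43 of 44 values kept their sign; Ppp3ca to Ppp3cc reversed, at -0.00065 without replicate 4, over a range of -0.00065 to 0.19. In CPM, which ignores length, Nfatc2 to Nfat5 was 0.08 against 0.78 in TPM. Levels moved by more than 1 SD for 7 of 9 genes in the second quantification, 7 of 9 over coding transcripts and 9 of 9 with protein-coding genes as the total, and for 0 of 36 with a library left out. The leading transcript's share moved in 6 of 9 genes in the second quantification and in 7 of 9 as a share of counts. Of 15 start, end and exon shares, an analysis added after seeing the data, 9 moved in the second quantification and 0 of 60 values with a library left out did. The cause of these differences was not tested. No paired comparison of conditions was possible because there is 1 group and no contrast. Depth limits Rcan1 most, at 52 to 89 counts per library.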
